A study of Homo sapiens with 9 samples.

Results

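The proteoglycan core proteins examined were 10 genes chosen by symbol from the 58735 genes of the deposited expression table: the lecticans VCAN, NCAN and BCAN, the membrane chondroitin sulfate proteoglycan CSPG4, the small leucine-rich proteoglycan BGN, the syndecans SDC1, SDC2 and SDC4, and the glypicans GPC1 and GPC6. All 10 symbols had exactly 1 row. Expression was measured by poly-A RNA sequencing of GBM43, a glioblastoma cell line, which had been grown inside a hyaluronic acid hydrogel in an invasion device. There were 3 groups of 3 libraries. MK801 devices received 50 µM MK801, which blocks the channel of NMDA-type glutamate receptors, and their core and invasive cells were sequenced together because little invasion had occurred. No pooled control was sequenced, so the drug and the pooling of fractions cannot be told apart in any comparison with MK801. The invasive and core groups came from control devices, in which the cells that had moved into the gel were cut away from those that remained in the core. The labels give both plain culture medium and DMSO vehicle for the control devices. All groups shared the line, a serum-containing medium and the digestion of the gel with hyaluronidase before RNA was extracted, so there is no group from another line or outside the gel. The study asks how glutamate and NMDA receptors bear on invasion.

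A proteoglycan is a core protein that carries long sulfated sugar chains. The chains are built in the Golgi on serines of the core protein, first through a shared linker and then as chondroitin or dermatan sulfate, or as heparan sulfate. Lecticans bind hyaluronan through their amino-terminal domain and fill the extracellular matrix of the brain, which contains hyaluronan as a main scaffold. Syndecans span the cell membrane and glypicans are tethered to it by a lipid anchor, and the heparan sulfate of both binds growth factors and matrix proteins.

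The libraries held 15.6 to 54.4 M fragments assigned to genes (1 M is 1000000), and MK801 replicate 3 was the deepest. They differed in how many genes they detected at an equal depth of 15.6 M fragments, with 15161 to 21517 in MK801, 15975 to 19140 in invasive and 20322 to 21414 in core libraries. The mean GC content of the RNA, weighted by fragments, was 54.2, 53.1 and 50.5% in MK801 replicates 1, 2 and 3, 52.7 to 54.4% in invasive and 49.8 to 51.1% in core libraries. MK801 replicate 1 stood nearer to the invasive libraries and MK801 replicate 3 nearer to the core libraries on both measures. Correlations of libraries within a group were 0.839 to 0.947 for MK801, 0.959 to 0.980 for invasive and 0.968 to 0.976 for core. Of 10 glioma and neural stem cell markers, 4 reached 1 FPKM in some library. These were VIM, EGFR, PDGFRA and SOX2, while GFAP and NES stayed at or under 0.234 and 0.510 FPKM and OLIG2 was listed at 0 in all 9 libraries. Neuronal markers summed to at most 7.83 FPKM in any library. The labels do not state whether replicate libraries were grown as separate cultures. The p-values therefore describe variation among these particular libraries, part or all of which may be technical.

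Levels are the deposited FPKM, fragments per kilobase of gene model and per M of a library total chosen by the authors. They can be compared between genes of a library, but without allowance for isoforms or for transcript GC content, along which libraries differed. The library total was 0.769 to 1.23 times the fragments assigned to genes. The median-of-ratios size factor of the deposited values was the same, 1.02, in all 9 libraries. Levels between libraries are thus relative to a scaling close to median-of-ratios, and values rescaled to the gene total are given where they change a statement. The 10 core proteins spanned the range from undetected to 837 FPKM. SDC4 and BGN were the most abundant: SDC4 led in 2 of 3 MK801 libraries and in all 3 core libraries, and BGN led in MK801 replicate 1 and in all 3 invasive libraries. Below these 2 genes, GPC6, CSPG4, SDC2, SDC1 and GPC1 lay between 1.60 and 17.9 FPKM in every library. The 3 lecticans lay near or under 1 FPKM. In MK801 libraries the ranges of SDC4 and BGN overlapped, and so did those of GPC6, CSPG4, SDC2, SDC1 and GPC1. In invasive libraries BGN stood above SDC4 with no overlap, SDC1 overlapped with CSPG4, and GPC1, GPC6 and SDC2 overlapped with each other. In core libraries SDC4 stood above BGN and BGN above GPC6 with no overlap. GPC6 and SDC2 met at 11.1 FPKM, SDC2 overlapped with CSPG4, and GPC1 overlapped with SDC1. BCAN lay above VCAN in MK801 libraries, and their ranges overlapped in both control fractions.

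**Figure D1:**
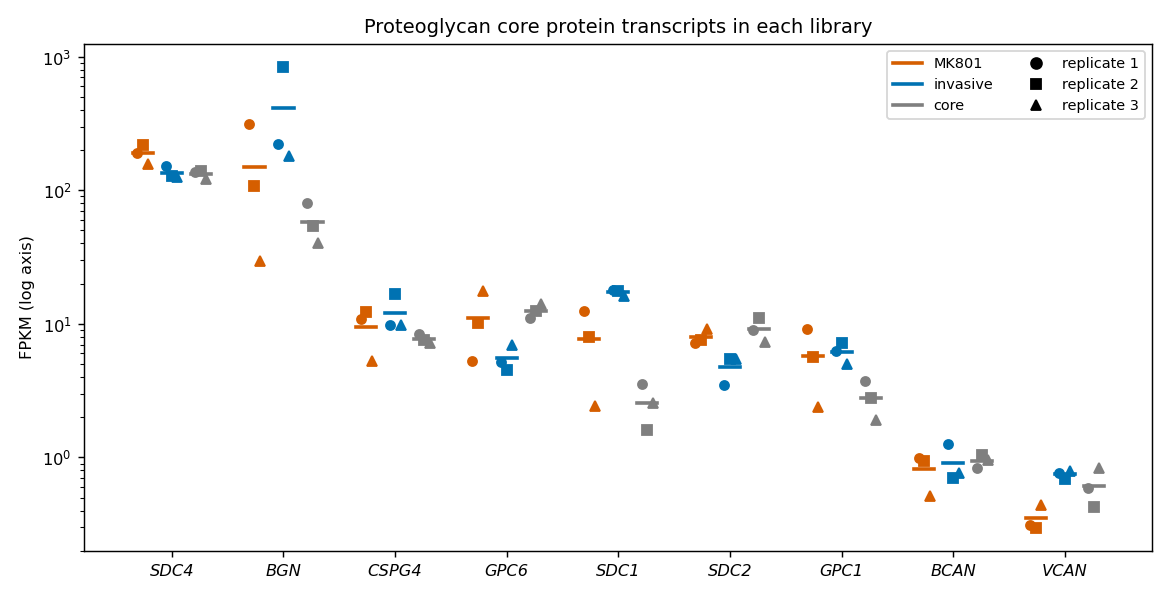
FPKM of the core proteins on a log axis, with 1 point per library, a bar at the group mean, and the groups MK801, invasive and core from left to right within each gene. SDC4 lies between 122 and 219 FPKM throughout and BGN runs from 29.8 to 837 FPKM. NCAN, at 0 in 8 of 9 libraries, is not drawn.

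The core proteins separated the invasive from the core fraction more often than they separated MK801 devices from either, as genes in general did. Differences were tested with limma on log2(FPKM + 1) over the 11845 genes that reached 1 FPKM in at least 3 libraries, with p adjusted over all of them by Benjamini-Hochberg. Of the 10 core proteins 7 passed that filter, and VCAN, NCAN and BCAN did not. At an adjusted p under 0.05, 0 members were called in any of the 3 comparisons, where 0% of all genes were called. Unadjusted p was under 0.05 for 2509 genes in MK801 against core, 978 in MK801 against invasive and 4461 in invasive against core. Voom on recovered fragments also called 0 genes in each. With replicate number as a block, 3 members were called higher and 2 lower in invasive against core, where 2525 of 11845 genes were called.

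In invasive against core, BGN, CSPG4, SDC1 and GPC1 were higher in all 3 invasive libraries than in any core library, and SDC2 and GPC6 were lower in all 3. Over all genes tested, 32% lay higher without overlap and 32.8% lower, so that separation of the groups was common. When the 6 control libraries were fitted alone, without the MK801 libraries, BGN, SDC1 and GPC1 were called higher and SDC2 and GPC6 lower, where 26.3% of all genes were called higher and 25.9% lower. In the fit of all groups without MK801 replicate 1 or without MK801 replicate 3, the same 5 genes were called, where 39.5 and 41.3% of all genes were. In MK801 against core, SDC4 alone was separated, being higher (9.89% of all genes higher and 8.82% lower without overlap). Without MK801 replicate 3, BGN, SDC1, SDC4 and GPC1 were called higher and GPC6 lower in that comparison, where 25.2% of all genes were called higher and 24.9% lower. Library quality weights, which give less weight to libraries far from their group, called 6 members in MK801 against core, 5 in MK801 against invasive and 5 in invasive against core, where 75.6, 47.7 and 66.3% of all genes were called. With genes detected per library as a covariate, BGN was called lower in MK801 than in invasive libraries, where 2.73% of all genes were called. In MK801 against invasive, SDC2 and SDC4 were higher and SDC1 was lower without overlap, against 5.22% of all genes higher and 5.63% lower. The comparisons with MK801 share the MK801 libraries, and each fraction enters 2 comparisons, so they are not independent of each other. With 3 libraries per group, the smallest p that an exact permutation test can reach is 0.1.

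**Figure D2:**
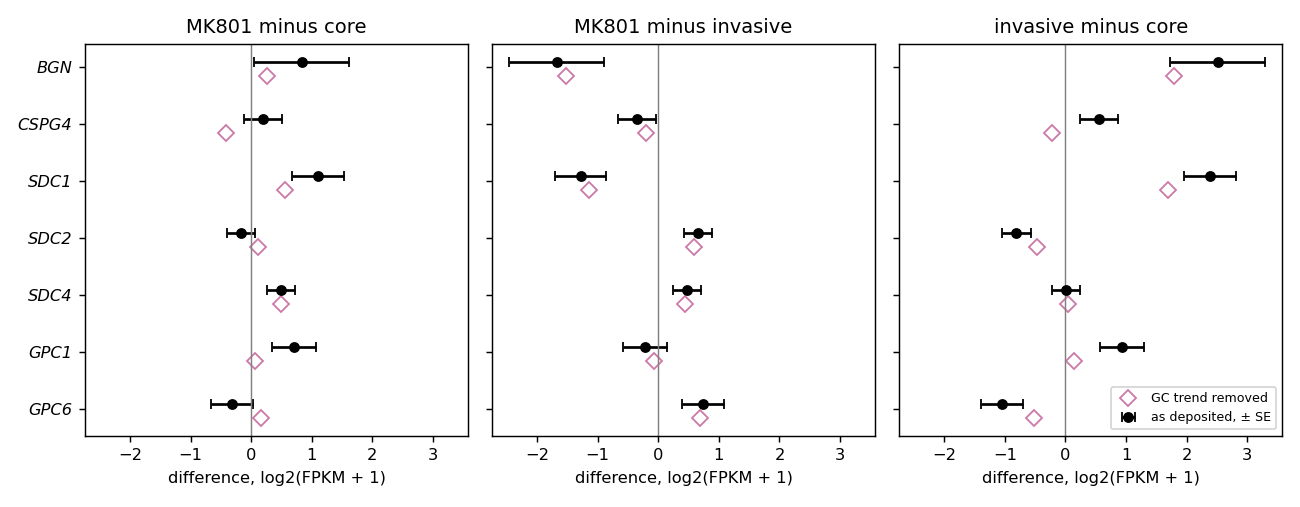
Differences in log2(FPKM + 1) of the 7 core proteins that passed the filter, for MK801 minus core, MK801 minus invasive and invasive minus core. Filled points with bars are the limma estimate ± SE, and open diamonds are the estimate after each library's trend over transcript GC content was removed. BGN and SDC1 stand at 2.51 and 2.39 in invasive minus core and remain above 1 without the GC trend, and SDC4 sits near 0 there.

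The lecticans were scarce. VCAN (ENSG00000038427, chr5:83471465-83582303, plus strand) encodes versican, a large hyaluronan-binding proteoglycan of the matrix. It had 0.310, 0.297 and 0.441 FPKM in MK801 libraries, 0.765, 0.685 and 0.787 FPKM in invasive libraries and 0.589, 0.424 and 0.835 FPKM in core libraries. All 3 MK801 libraries lay below all 3 invasive libraries, and the MK801 range overlapped with the core range. These levels rest on 65, 68 and 425 fragments in MK801 libraries, against 190, 183 and 233 in invasive libraries. The exact Poisson 95% interval of the highest MK801 library ended at 0.485 FPKM and that of the lowest invasive library began at 0.590 FPKM, which covers counting error only. Rescaled to the gene total, these 2 libraries stood at 0.527 and 0.540 FPKM, so the distance between them depends on the scaling. Of all genes tested, which do not include VCAN, 5.63% lay lower in MK801 than in invasive libraries without overlap. The mean was 0.349 ± 0.0796 FPKM in MK801 and 0.746 ± 0.0534 FPKM in invasive libraries (SD, n = 3 each), a fold of means of 0.468. In a limma fit with no filter the difference was -0.37 in log2(FPKM + 1), a scale that compresses differences at such low levels, and the adjusted p was 0.852. The gene model of 14831 bases includes exons that some versican isoforms lack, and a gene value does not tell isoforms apart.

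BCAN (ENSG00000132692, chr1:156641390-156659532, plus strand) encodes brevican, a lectican made mainly in the brain. It had 0.989, 0.946 and 0.518 FPKM in MK801 libraries, 1.26, 0.698 and 0.762 FPKM in invasive libraries and 0.831, 1.04 and 0.954 FPKM in core libraries. The 3 groups overlapped in the deposited values. Rescaled to the gene total, BCAN had 0.761, 0.886 and 0.619 FPKM in MK801 and 0.977, 1.15 and 1.17 FPKM in core libraries, without overlap. This rescaling moved the median of MK801 minus core over all genes to -0.22, and the share of all genes it separated was not counted. BCAN stood at -0.26, which is -0.040 relative to that median. Its value is uncertain, since 2 antisense genes overlap it at higher levels, AL365181.3 with a mean of 9.70 FPKM in MK801, 12.4 FPKM in invasive and 8.78 FPKM in core libraries, and AL590666.2 with 4.97, 6.61 and 2.99 FPKM in the same groups. Whether strand was used in counting is not given in the sources used here. NCAN (ENSG00000130287, chr19:19211973-19252233, plus strand) encodes neurocan, another lectican of nervous tissue. It had 0 fragments in 8 libraries and 3 fragments in core replicate 2, or 0.0253 FPKM with an exact Poisson 95% interval of 0.00522 to 0.0739. A count of 0 allows up to 3 fragments, which is 0.00668 FPKM in MK801 replicate 3, the deepest library, and up to 0.0307 FPKM in the others. NCAN was therefore not detectable at these depths in either MK801 or invasive libraries.

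CSPG4 (ENSG00000173546, chr15:75674322-75712848, minus strand) encodes NG2, a transmembrane proteoglycan known from oligodendrocyte precursors, pericytes and glioma cells. It had 10.9, 12.3 and 5.28 FPKM in MK801 libraries, 9.80, 16.7 and 9.73 FPKM in invasive libraries and 8.43, 7.53 and 7.17 FPKM in core libraries. Every invasive library lay above every core library, while MK801 overlapped with both. Rescaled to the gene total, invasive and core libraries overlapped, with 9.84, 13.2 and 10.4 FPKM in invasive and 9.91, 8.30 and 8.81 FPKM in core libraries. The difference of invasive minus core was 0.55 (SE 0.31, limma adjusted p = 0.195). After removal of the GC trend it was -0.22, so the direction depends on that step. MK801 minus core was 0.20 (SE 0.31), and it was -0.42 after removal of the GC trend. Of 7 oligodendrocyte precursor markers, 3 reached 1 FPKM in some library, CSPG4 itself among them, and the list summed to 9.29 to 15.7 FPKM in MK801, 14.2 to 23.0 FPKM in invasive and 12.1 to 14.5 FPKM in core libraries. CSPG4 made up most of that sum. PDGFRA and NKX2-2 of the same list were present in all 9 libraries, at 1.32 to 4.83 and 1.15 to 3.05 FPKM. SOX10 and GPR17 did not exceed 0.0954 FPKM. OLIG1 and OLIG2, which accompany CSPG4 in oligodendrocyte precursors, were listed at 0 in all 9 libraries.

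BGN (ENSG00000182492, chrX:153494939-153509554, plus strand) encodes biglycan, a secreted matrix proteoglycan that binds collagen. It had 313, 108 and 29.8 FPKM in MK801 libraries, 222, 837 and 182 FPKM in invasive libraries and 80.2, 54.3 and 40.1 FPKM in core libraries. Every invasive library was above every core library, invasive replicate 2 was the highest by far, and the MK801 libraries ran from below the core range to above 2 of the invasive libraries. The mean was 414 ± 367 FPKM in invasive and 58.2 ± 20.4 FPKM in core libraries (SD, n = 3 each). The difference was 2.51 (SE 0.78, limma adjusted p = 0.106) with all groups in the fit, and the adjusted p was 0.00586 with the control fractions fitted alone. Over all alternatives the adjusted p ran from 0.000513 to 0.306. Without invasive replicate 2 the difference was 1.83, and without the GC trend it was 1.79. MK801 minus invasive was -1.68 (SE 0.78, adjusted p = 0.643), or -0.99 without invasive replicate 2.

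Genes known as markers of other cell types differed beside BGN and SDC1, in libraries described only as GBM43. Of 10 fibroblast and pericyte symbols RGS5 had 2 rows, and 8 of the 11 rows reached 1 FPKM in some library, with none at 0 in all. In invasive against core, 7 rows were higher without overlap, 2 were lower, both of them RGS5, and FAP and DCN overlapped. Over all genes tested, 32% lay higher without overlap and 32.8% lower. Those genes reached 1 FPKM in at least 3 libraries, while the RGS5 rows did not exceed 0.589 FPKM. Their summed level was 85.7 to 202 FPKM in MK801, 357 to 628 FPKM in invasive and 74.0 to 148 FPKM in core libraries. The collagen genes COL1A1 and COL1A2 made up most of that sum. PDGFRB, a receptor of fibroblasts and pericytes, averaged 24.8 ± 9.55 FPKM in MK801, 48.1 ± 15.5 FPKM in invasive and 11.6 ± 2.97 FPKM in core libraries. THY1 averaged 2.18 ± 1.73 FPKM in MK801, 5.30 ± 1.39 FPKM in invasive and 1.46 ± 0.288 FPKM in core libraries. COL3A1 averaged 0.259 ± 0.209 FPKM in MK801, 2.72 ± 1.09 FPKM in invasive and 0.413 ± 0.172 FPKM in core libraries. DCN did not exceed 0.827 FPKM in any library, and LUM averaged 0.431 ± 0.241 FPKM in MK801, 1.39 ± 0.274 FPKM in invasive and 0.778 ± 0.210 FPKM in core libraries (SD, n = 3 each). Endothelial markers, 2 of 6 of which reached 1 FPKM, summed to 1.34 to 1.60 FPKM in MK801, 1.79 to 5.34 FPKM in invasive and 1.36 to 1.56 FPKM in core libraries. In invasive against core, 2 of the 6 endothelial markers, CDH5 and VWF, were higher without overlap and 4 overlapped. VWF did not exceed 0.128 FPKM in any library. CDH5 had 0.558, 0.107 and 0.0354 FPKM in MK801 libraries, 1.43, 3.15 and 0.758 FPKM in invasive libraries and at most 0.0729 FPKM in core libraries. Of 8 macrophage and microglia markers 2 reached 1 FPKM, TMEM119 and CSF1R, and the list summed to 12.7 to 52.1 FPKM in MK801, 50.6 to 72.8 FPKM in invasive and 10.6 to 20.4 FPKM in core libraries, while PTPRC, which encodes the leukocyte marker CD45, did not exceed 0.0699 FPKM. Between the same fractions, 2 of the 8 macrophage and microglia markers were higher in invasive libraries without overlap, 1, PTPRC, was lower and 5 overlapped. Values without the GC trend are not given for the cell type markers. The part of these markers in the BGN and SDC1 values was not tested. In RNA from whole fractions, fewer cells of a kind and less RNA per cell cannot be told apart.

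SDC1 (ENSG00000115884, chr2:20200797-20225433, minus strand) encodes syndecan-1, best known from epithelial and plasma cells. It had 12.6, 7.93 and 2.45 FPKM in MK801 libraries, 17.9, 17.5 and 16.2 FPKM in invasive libraries and 3.54, 1.60 and 2.54 FPKM in core libraries. The invasive libraries agreed closely and lay above all others, and the MK801 libraries were spread between the fractions, with replicate 3 inside the core range. The mean was 17.2 ± 0.911 FPKM in invasive and 2.56 ± 0.968 FPKM in core libraries (SD, n = 3 each), a fold of means of 6.72. The difference was 2.39 (SE 0.43, limma adjusted p = 0.0744), and the adjusted p was 0.00139 with the control fractions fitted alone. Its range over the alternatives was 4.71e-05 to 0.303. Without the GC trend the difference was 1.69. MK801 minus invasive was -1.28 (SE 0.43, adjusted p = 0.423), with -1.71 without MK801 replicate 1 and -0.73 without MK801 replicate 3. MK801 minus core was 1.11 (SE 0.43, adjusted p = 0.235), with 0.68 without MK801 replicate 1 and 1.66 without MK801 replicate 3.

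SDC2 (ENSG00000169439, chr8:96493351-96611780, plus strand) encodes syndecan-2, a syndecan common in mesenchymal cells and neurons. It had 7.15, 7.63 and 9.22 FPKM in MK801 libraries, 3.52, 5.41 and 5.44 FPKM in invasive libraries and 9.02, 11.1 and 7.26 FPKM in core libraries. The invasive libraries were the lowest, and the MK801 libraries overlapped with core. Invasive minus core was -0.81 (SE 0.23, limma adjusted p = 0.106), or -0.47 without the GC trend. MK801 minus invasive was 0.65 (SE 0.23, adjusted p = 0.465), or 0.58 without the GC trend. Rescaled to the gene total, these groups overlapped, since MK801 replicate 1 was at 5.50 FPKM and invasive replicate 3 at 5.80 FPKM. The order of the fractions was thus opposite for SDC1 and SDC2.

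SDC4 (ENSG00000124145, chr20:45325288-45348424, minus strand) encodes syndecan-4, a component of focal adhesions. It had 190, 219 and 158 FPKM in MK801 libraries, 152, 127 and 125 FPKM in invasive libraries and 138, 139 and 122 FPKM in core libraries. All 3 MK801 libraries lay above all 6 control libraries, and the control fractions overlapped. The separation depends on the scaling: rescaled to the gene total, SDC4 had 146, 205 and 189 FPKM in MK801 libraries, 153, 100.3 and 133 FPKM in invasive libraries and 162, 154 and 150.4 FPKM in core libraries, and MK801 overlapped with both fractions. The mean was 189 ± 30.4 FPKM in MK801, 135 ± 15.3 FPKM in invasive and 133 ± 9.40 FPKM in core libraries (SD, n = 3 each). MK801 minus core was 0.49 (SE 0.23, limma adjusted p = 0.238) and MK801 minus invasive was 0.48 (SE 0.23, adjusted p = 0.680). Removal of the GC trend left these at 0.49 and 0.44. MK801 minus core was 0.20 both rescaled to the gene total and by voom. Quantile normalization brought it to 0.04 and left MK801 minus invasive at 0.53. Invasive minus core was 0.01 (SE 0.23), and it was -0.29 when FPKM was rescaled to each library's gene total and -0.49 after quantile normalization.

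The 2 glypicans had opposite orders in the fractions. GPC1 (ENSG00000063660, chr2:240435671-240468078, plus strand), which encodes a glypican of the adult nervous system and of many tumours, had 9.13, 5.64 and 2.40 FPKM in MK801 libraries, 6.29, 7.21 and 4.99 FPKM in invasive libraries and 3.72, 2.79 and 1.91 FPKM in core libraries. The invasive libraries lay above the core libraries, and the MK801 libraries covered nearly the whole span of both. Invasive minus core was 0.93 (SE 0.36, limma adjusted p = 0.114), and it was 0.13 without the GC trend. GPC6 (ENSG00000183098, chr13:93226842-94407401, plus strand), which encodes a glypican that astrocytes release and that promotes excitatory synapses in rodents, had 5.25, 10.1 and 17.6 FPKM in MK801 libraries, 5.22, 4.53 and 6.99 FPKM in invasive libraries and 11.1, 12.5 and 14.0 FPKM in core libraries. The invasive libraries lay below the core libraries, and MK801 replicate 1 was inside the invasive range while replicate 3 was above every core library. Invasive minus core was -1.05 (SE 0.35, adjusted p = 0.106), or -0.52 without the GC trend. MK801 minus invasive was 0.74 (SE 0.35, adjusted p = 0.646) for GPC6, with 1.14 without MK801 replicate 1 and 0.36 without MK801 replicate 3. For GPC1 it was -0.22 (SE 0.36, adjusted p = 0.971), with -0.58 without MK801 replicate 1 and 0.21 without MK801 replicate 3.

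The promoters of 4 of these genes are shown, the 3 that were higher in invasive than in core libraries by the widest margin, BGN, SDC1 and GPC1, and 1 that was lower, GPC6. Each run is the 250 bases before a RefSeq transcription start on GRCh38.p14, in the sense of the gene, and 8 of the 10 members had such an entry. Capitals mark GC boxes (GGGCGG, the core of SP-family sites) and TATA boxes (TATAAA), searched on both strands, where neighbouring matches may run together. BGN lies at chrX:153494730-153494979 on the plus strand, SDC1 at chr2:20225476-20225725 on the minus strand, GPC1 at chr2:240435413-240435662 on the plus strand and GPC6 at chr13:93226557-93226806 on the plus strand.
BGN: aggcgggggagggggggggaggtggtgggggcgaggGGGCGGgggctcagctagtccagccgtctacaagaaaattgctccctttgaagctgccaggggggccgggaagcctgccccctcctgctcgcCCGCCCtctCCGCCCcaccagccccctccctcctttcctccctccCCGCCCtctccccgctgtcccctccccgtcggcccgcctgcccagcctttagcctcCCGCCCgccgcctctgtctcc
SDC1: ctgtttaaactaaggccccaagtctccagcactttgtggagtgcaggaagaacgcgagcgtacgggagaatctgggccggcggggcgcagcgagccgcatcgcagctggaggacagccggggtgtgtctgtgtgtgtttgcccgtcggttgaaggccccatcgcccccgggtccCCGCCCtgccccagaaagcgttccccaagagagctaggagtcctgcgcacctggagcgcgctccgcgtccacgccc
GPC1: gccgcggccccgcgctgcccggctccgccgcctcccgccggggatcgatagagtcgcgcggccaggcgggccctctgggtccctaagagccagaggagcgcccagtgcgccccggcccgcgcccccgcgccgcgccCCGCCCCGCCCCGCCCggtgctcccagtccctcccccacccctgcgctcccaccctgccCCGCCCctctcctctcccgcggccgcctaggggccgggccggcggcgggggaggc
GPC6: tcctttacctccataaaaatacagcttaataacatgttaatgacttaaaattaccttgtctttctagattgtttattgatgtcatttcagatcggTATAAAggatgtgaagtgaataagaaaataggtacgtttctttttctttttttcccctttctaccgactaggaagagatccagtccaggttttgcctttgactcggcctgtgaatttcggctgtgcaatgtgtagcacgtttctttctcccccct

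The GC content of these windows was 74% for BGN, 66.4% for SDC1, 84% for GPC1 and 37.6% for GPC6, beside a median of 58% over all 35116 RefSeq promoters. GC boxes numbered 5 in BGN, 1 in SDC1 and 4 in GPC1, and the GPC6 window held 0 GC boxes and 1 TATA box. SDC4, with a difference of 0.01 between the fractions, had a GC content of 73.6% and 8 GC boxes, and no gene shown had as many boxes. SDC2, which was lower in invasive than in core libraries, and NCAN had no promoter entry. CSPG4 had 68.4% and 1 GC box. A GC box was present in 42.6% and a TATA box in 10.7% of all promoters of this length. AP-1 (TGANTCA) and TEAD (GGAATG) motifs, present in 6.57 and 11.9% of all promoters, had 0 matches in the windows of the 8 members. SDC1 has a second RefSeq start, and the one shown is nearest to the start of the gene model. A match or its absence in these windows is a description of the letters only.

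GC content over transcripts was 61.0% for BGN, 63.5% for CSPG4, 60.3% for SDC1 and 65.0% for GPC1, all above the median of 49.2% of genes tested, and 45.3% for SDC2 and 42.8% for GPC6, both below it. SDC4 was near the median with 48.8%. Over all genes tested, the median difference of invasive minus core was -0.56 for the 2697 genes of 40 to 45% GC, -0.18 for the 2334 genes of 45 to 50% GC and 0.75 for the 1720 genes of 60% or more. Among genes of 60% or more, the 10th and 90th percentiles were 0.16 and 1.22. BGN at 2.51 and SDC1 at 2.39 lay above that range, and CSPG4 at 0.55 and GPC1 at 0.93 lay within it. GPC6 at -1.05 lay just below the 10th percentile of -1.02 of its GC class, and SDC2 at -0.81 just below that of -0.74. With the GC trend removed and all groups in the fit, the adjusted p was 0.144 for BGN, 0.0560 for SDC1 and 0.152 for GPC6, and 0% of all genes were called. With the GC trend removed and the control fractions fitted alone, BGN and SDC1 were called higher (adjusted p = 0.0288 and 0.0108) and GPC6 lower (adjusted p = 0.0216), where 9.02% of all genes were called higher and 8.18% lower. Over the alternatives the adjusted p of GPC6 ran from 0.000244 to 0.306, and those of BGN and SDC1 are given above. GC content thus moved with the direction of all 6 members that separated the fractions, and its part in the differences was not tested beyond these values.

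**Figure D3:**
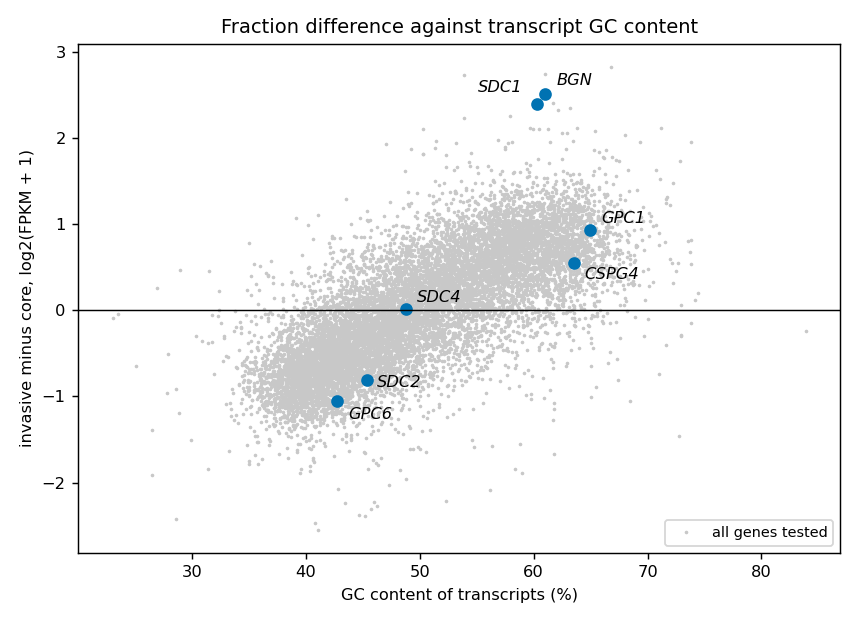
Difference of invasive minus core in log2(FPKM + 1) against transcript GC content in percent. Small grey points are all genes tested, and the labelled points are the 7 core proteins tested. The grey points climb with GC content, BGN and SDC1 stand above them at 2.51 and 2.39, and CSPG4, GPC1 and SDC4 lie among them.

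As a share of the summed FPKM of the 10 genes, BGN held 57.0, 29 and 13.2% in MK801 libraries, 53.0, 82.3 and 51.7% in invasive libraries and 31.4, 23.5 and 20.3% in core libraries. SDC4 held 34.6, 58.9 and 70.0% in MK801 libraries, 36.3, 12.5 and 35.5% in invasive libraries and 54.0, 60.4 and 62.1% in core libraries. The fractions did not overlap in either share, and MK801 libraries ran from invasive-like to core-like values. BGN and SDC4 differ in transcript GC content (61.0 and 48.8%), and the shares were not computed without the GC trend. The chondroitin or dermatan sulfate members (VCAN, NCAN, BCAN, CSPG4 and BGN) summed to 325, 121 and 36.0 FPKM in MK801 libraries, 234, 855 and 193 FPKM in invasive libraries and 90.1, 63.3 and 49.0 FPKM in core libraries, and BGN made up 81.7 to 97.9% of this sum. The heparan sulfate members (SDC1, SDC2, SDC4, GPC1 and GPC6) summed to 224, 250 and 190 FPKM in MK801 libraries, 185, 162 and 158 FPKM in invasive libraries and 165, 167 and 148 FPKM in core libraries. Rescaled to the gene total, the heparan sulfate sum averaged 211 FPKM in MK801, 161 FPKM in invasive and 187 FPKM in core libraries, so the order of the fractions depends on the scaling. Without SDC4 the heparan sulfate members summed to 34.1, 31.3 and 31.7 FPKM in MK801 libraries, 32.9, 34.7 and 33.6 FPKM in invasive libraries and 27.4, 28.0 and 25.7 FPKM in core libraries. Rescaled to the gene total, the groups overlapped in the sum without SDC4, so its lower level in core libraries depends on the scaling. In the deposited values this sum varied far less than its members, and SDC1 and GPC1 were higher where SDC2 and GPC6 were lower.

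**Figure D4:**
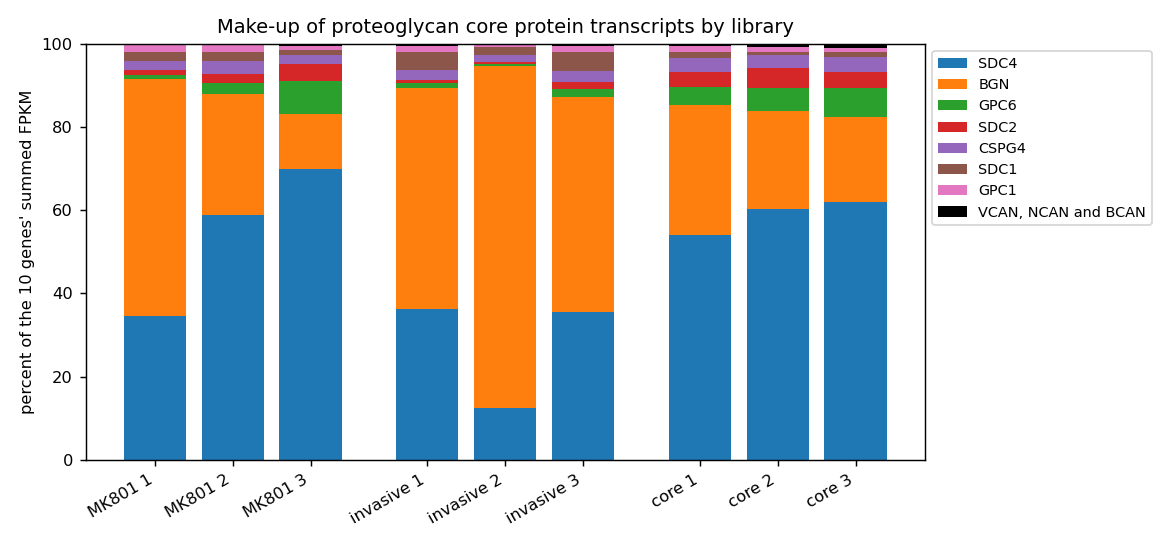
Share of each core protein in the summed FPKM of the 10 genes, in percent, 1 bar per library with MK801 first, then invasive, then core. BGN takes 51.7 to 82.3% of the invasive bars and 20.3 to 31.4% of the core bars.

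Ratios within a library do not depend on its total. The ratios below were chosen after the values of their genes were seen, and are given without a test. SDC1 to SDC2 was 1.76, 1.04 and 0.265 in MK801 libraries, 5.09, 3.24 and 2.97 in invasive libraries and 0.392, 0.144 and 0.350 in core libraries. SDC1 was the more abundant of them in every invasive library and the less abundant in every core library. GPC1 to GPC6 was 1.74, 0.560 and 0.136 in MK801 libraries, 1.21, 1.59 and 0.714 in invasive libraries and 0.335, 0.223 and 0.136 in core libraries. The fractions did not overlap in either ratio. With the GC trend removed, the log2 difference of SDC1 and SDC2 averaged -0.47 in MK801, 1.25 in invasive and -0.91 in core libraries, and that of GPC1 and GPC6 averaged -1.14 in MK801, -0.39 in invasive and -1.04 in core libraries.

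**Figure D5:**
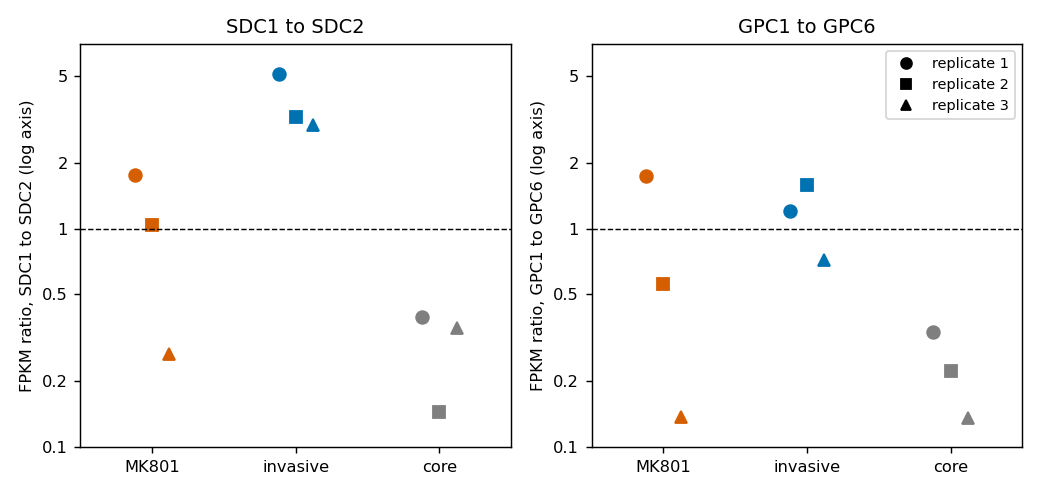
FPKM ratio of SDC1 to SDC2 (left) and of GPC1 to GPC6 (right) on log axes, 1 point per library, marked by replicate number. SDC1 to SDC2 is 2.97 to 5.09 in invasive and 0.144 to 0.392 in core libraries, and both ratios are highest in replicate 1 and lowest in replicate 3 among MK801 libraries.

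Of 30 other proteoglycan core and link proteins, 13 were tested and 16 stayed under 1 FPKM in every library, among them ACAN, FMOD, EPYC and HAPLN4, which were listed at 0 in all. In MK801 against invasive, 12 of the 13 had a negative difference, with a median of -0.52 beside -0.00 over all genes tested, and 6 of 13 (46.2%) had an unadjusted p under 0.05 beside 8.26% of all genes. Drug and pooling cannot be told apart in these differences. The list was chosen with earlier results of these data known, and its genes share the same libraries. Its counts and shares beside those of all genes, here and below, are thus a description and not a test of the list. AGRN, which encodes the heparan sulfate proteoglycan agrin, averaged 18.5 ± 6.59 FPKM in MK801 and 38.8 ± 8.52 FPKM in invasive libraries (difference -1.07, or -0.93 without the GC trend, limma adjusted p = 0.323). SPOCK1, which encodes testican-1, averaged 4.89 ± 0.144 FPKM in MK801 and 8.97 ± 1.40 FPKM in invasive libraries (difference -0.75, adjusted p = 0.375). In invasive against core, 10 of 13 differences were positive with a median of 0.43 beside -0.02 over all genes, and 7 of 13 (53.8%) had an unadjusted p under 0.05 beside 37.7% of all genes. COL18A1, the collagen XVIII chain, averaged 7.91 ± 1.66 FPKM in invasive and 1.59 ± 0.387 FPKM in core libraries (difference 1.77, or 0.94 without the GC trend, adjusted p = 0.0642), and HAPLN3, a hyaluronan link protein, averaged 6.70 ± 0.917 FPKM in invasive and 1.29 ± 0.316 FPKM in core libraries (difference 1.75, or 1.05 without the GC trend, adjusted p = 0.0642). With the GC trend removed the median of the list was -0.54 in MK801 against invasive and 0.52 in invasive against core. In MK801 against core 6 of 13 differences were positive and the median was -0.03, and SRGN, which encodes serglycin, averaged 13.4 ± 5.91 FPKM in MK801 and 25.4 ± 2.53 FPKM in core libraries (difference -0.96, or -0.25 without the GC trend, adjusted p = 0.235). In every list and comparison, 0 genes were called after adjustment.

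The enzymes that build the chains did not share a direction. All 15 genes of the linker and its precursors were tested, and in invasive against core 7 differences were positive and 8 negative, with a median of -0.10. B3GALT6, a galactosyltransferase of the linker, averaged 23.9 ± 1.58 FPKM in invasive and 13.0 ± 3.67 FPKM in core libraries, while UGP2, which makes UDP-glucose, averaged 3.56 ± 0.204 FPKM in invasive and 7.58 ± 1.006 FPKM in core libraries (limma adjusted p = 0.106 and 0.111). Their differences were 0.86 and -0.91, or 0.08 and -0.38 without the GC trend. Of 16 chondroitin and dermatan sulfate enzymes 12 were tested. In invasive against core 7 differences were positive and 5 negative, and the median was 0.35, or 0.07 without the GC trend. CHST14, the dermatan 4-O-sulfotransferase, averaged 21.2 ± 6.0 FPKM in invasive and 7.32 ± 1.13 FPKM in core libraries (difference 1.39, or 0.74 without the GC trend, adjusted p = 0.0958), and CHPF, a chondroitin polymerizing factor, averaged 60.2 ± 8.09 FPKM in invasive and 25.4 ± 6.61 FPKM in core libraries (difference 1.23, or 0.41 without the GC trend, adjusted p = 0.106). In MK801 against core the median of this list was 0.49, or 0.14 without the GC trend, and CHPF2 averaged 39.95 ± 12 FPKM in MK801 and 19.2 ± 3.73 FPKM in core libraries (difference 0.99, or 0.40 without the GC trend, adjusted p = 0.235).

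Of 23 heparan sulfate enzymes 10 were tested, and in invasive against core 5 differences were positive and 5 negative, with a median of 0.11. EXT2, a subunit of the heparan sulfate polymerase, averaged 28.7 ± 1.20 FPKM in invasive and 14.2 ± 1.41 FPKM in core libraries, a difference of 0.97 (limma adjusted p = 0.101) that was 0.99 without the GC trend. NDST1, which starts the sulfation of the chain, averaged 19.4 ± 1.49 FPKM in invasive and 9.49 ± 1.48 FPKM in core libraries, a difference of 0.97 (adjusted p = 0.0987) that was 0.30 without the GC trend. In MK801 against invasive the list's median was -0.12, and EXT2 averaged 17.8 ± 6.0 FPKM in MK801 and 28.7 ± 1.20 FPKM in invasive libraries (difference -0.72, adjusted p = 0.475). Of 18 enzymes that cleave or shed proteoglycans 10 were tested, with 7 positive and 3 negative differences and a median of 0.22 in invasive against core, or -0.03 without the GC trend, and a median of 0.00 in MK801 against invasive. NOTUM, a lipase that acts on Wnt proteins and was linked to glypicans in Drosophila, averaged 3.35 ± 1.48 FPKM in invasive and 0.531 ± 0.235 FPKM in core libraries (difference 1.46, or 0.63 without the GC trend, adjusted p = 0.0794). MMP14, the membrane metalloproteinase that sheds SDC1, averaged 651 ± 209 FPKM in invasive and 318 ± 49.6 FPKM in core libraries (difference 0.99, or 0.34 without the GC trend, adjusted p = 0.109).

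The genes whose log2(FPKM + 1) followed each core protein most closely over the 9 libraries are given by Pearson's r as a description. For BGN they were ACTN4 and RIN1 (0.992 each), for SDC1 FOXM1 (0.990) and LAMP1 (0.989), and for GPC1 ADCK2 (0.993) and ELOVL1 (0.989). For CSPG4 they were PLEC (0.981) and CD44 (0.976), the main hyaluronan receptor, which averaged 68.1 ± 16.4 FPKM in MK801, 84.2 ± 19.6 FPKM in invasive and 62.1 ± 5.46 FPKM in core libraries (SD, n = 3 each). For GPC6 they were DCP1A (0.988) and IGF2BP2 (0.987), for SDC2 UTP6 (0.964) and RAB13 (0.944), and for SDC4 ZNF317 (0.974) and CBX6 (0.953). The 9 points share the groups, the libraries' GC content and the number of genes they detected.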

How the data were processed

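Columns of the deposited table were assigned to libraries through the column names that the labels quote, which left 0 columns without a library. The authors deposited FPKM for every gene, with gene coordinates and the gene length used by the authors. GRCh38, featureCounts 1.5.0-p3 and HISAT2 2.0.5 are listed in the submitters' processing notes. Settings, including strand, are not given in the sources used here. Gene identifiers and coordinates matched GENCODE release 29 for 99.98% of genes. Within each library, 100% of nonzero values, multiplied by gene length, were integer multiples of a single step to within 0.01 fragments, and fragment numbers were recovered from this. They gave the depths, the exact Poisson 95% intervals and the limit of 3 fragments for a count of 0. The authors' library total was 0.769 to 1.23 times this gene total.

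Limma 3.58.1 in R 4.3.3 was fitted to log2(FPKM + 1) of all 9 libraries with 1 mean per group, moderated variances with a trend on expression level, and 6 residual degrees of freedom. Genes needed 1 FPKM in at least 3 libraries, and 11845 were tested at a Benjamini-Hochberg adjusted p of 0.05. Contrasts were MK801 minus core, MK801 minus invasive and invasive minus core. The fit was tested on simulated data. GC content came from GENCODE transcripts, and its trend was removed per library by loess (span 0.3). Promoters came from RefSeq.

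All 10 members are described. Per list and comparison, the 3 genes of smallest p with a mean of at least 1 FPKM could be named, and the text names some of them. Per member, the 2 protein-coding genes with the highest r and a mean of at least 5 FPKM are named. Members, lists and markers were chosen with earlier results of these data known, and 102 of 102 list symbols matched. Alternatives were pseudocounts of 0.1 and 0.5, no filter or 5 FPKM, rescaling to the gene total, median-of-ratios and quantile scaling, the replicate block, the groups fitted alone, robust empirical Bayes, library quality weights, voom on recovered fragments, protein-coding genes only, removal of the GC trend, genes detected as a covariate, and leaving out libraries. The gene ratios were chosen after the data were seen.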

Additional observations from a re-analysis of the deposited data

How the results depend on the processing

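The count of members called was 0 in each comparison. With library quality weights it was 6 in MK801 against core, 5 in MK801 against invasive and 5 in invasive against core, where 75.6, 47.7 and 66.3% of all genes were called. Replicate numbers were not used as pairs in the main fit. The labels and column names number the core and invasive fractions alike but do not say that a number marks 1 device. Correlations of same-numbered deviations were 0.0438 to 0.585 for MK801 and core, -0.150 to 0.608 for MK801 and invasive, and -0.00701 to 0.445 for invasive and core. Those of unlike numbers were -0.519 to 0.174, -0.553 to 0.531 and -0.400 to 0.208 in the same order. Whether 2 fractions of a number share a device is therefore not settled. With the replicate block 5 members and 2525 genes were called in invasive against core. There 5 members and 6179 genes were called with the groups compared alone, and 3 members and 2037 genes with the GC trend removed as well. The covariate for genes detected gave 1 member in MK801 against invasive (BGN, -1.24, adjusted p = 0.0242, with a range of 0.00171 to 0.9997 over the alternatives, and 323 genes called). Leaving out 1 library gave 0 to 5 in MK801 against core, 0 in MK801 against invasive and 0 to 5 in invasive against core. The number of genes called was then 0 to 5941, 0 to 42 and 0 to 4888. Removal of the GC trend called 74 genes in MK801 against invasive, or 43 with the replicate block and 4 with the groups alone. Leaving out both fewest-gene libraries called 14 genes in invasive against core, quantile normalization 6, the covariate 4 and protein-coding genes only 1, and the filter at 5 FPKM called 1 in MK801 against invasive.

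Rescaling to the gene total moved the median of all genes to -0.22 in MK801 against core and -0.26 in invasive against core, and voom moved them to -0.25 and -0.35. Relative to these medians CSPG4 was at 0.15 and 0.086 in MK801 against core and SDC4 at -0.029 and 0.055 in invasive against core. Among the members' log2 differences under alternatives, 503 kept their direction without passing the threshold, 45 passed it and 28 reversed. The 45 include those from library quality weights, where 75.6, 47.7 and 66.3% of all genes were called. The median-of-ratios, replicate block, groups-alone, robust and protein-coding fits cannot move an estimate by more than rounding, so an equal value there says nothing of stability. Those reversed in MK801 against core were CSPG4 (-0.069 rescaled to the gene total, -0.16 by voom, -0.42 without the GC trend, -0.14 with the covariate, and -0.0054 to 0.54 leaving out 1 library), BGN (-0.41 with the covariate), SDC2 (0.11 without the GC trend) and GPC6 (0.16 without the GC trend, 0.18 with the covariate, 0.088 without the fewest-gene libraries, and -0.70 to 0.088 leaving out 1 library). In MK801 against invasive they were CSPG4 (0.25 with quality weights) and GPC1 (-0.58 to 0.21 leaving out 1 library). In invasive against core they were CSPG4 (-0.22 without the GC trend) and SDC4 (-0.29 rescaled, -0.49 by quantile normalization, -0.30 by voom, -0.066 with the covariate, and -0.077 to 0.066 leaving out 1 library). Removal of the GC trend with all groups, alone or with the replicate block, called 0 genes in invasive against core. The heparan sulfate sum in core moved to 187 FPKM, from 160 FPKM, when rescaled to the gene total. The cause of these changes was not tested. At these depths NCAN was at 0 fragments in 8 libraries.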
